A study of Mus musculus with 12 samples.

Results

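The transcripts of 10 genes of the Polycomb repressive complexes, Ezh1, Ezh2, Eed, Suz12, Jarid2, Bmi1, Ring1, Rnf2, Cbx2 and Cbx7, were followed in cultured adult neural stem cells (NSCs) entering quiescence. They were chosen by symbol from the 17365 genes of the count table, and all 10 were found and passed the filter on low counts. The 12 RNA-seq libraries came from mouse NSC lines of the subventricular zone of wild-type adults, 6 to 8 weeks old, used below passage 10. ANS4 was derived from the MF1 strain and BL6 from C57BL/6, so that line and strain cannot be told apart. Cells of each line were kept for 3 days in EGF and FGF2, in BMP4 alone (BMP, d-qNSCs) or in BMP4 with FGF2 (BMP/FGF, p-qNSCs), each factor at 10 ng/ml. The EGF/FGF cultures divide, the BMP4 cultures are quiescent, and FGF2 beside BMP4 gives the state called primed. Each line gave 2 libraries per condition, described as biological replicates, and the labels do not say whether these were separate cultures, so p-values measure the spread between these libraries.

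Polycomb proteins keep genes silent by marking histones. In Polycomb repressive complex 2 (PRC2), EZH1 or EZH2 methylates lysine 27 of histone H3, and EED and SUZ12 are the core partners that the enzyme needs, with JARID2 as an accessory subunit. In Polycomb repressive complex 1 (PRC1), RING1 or RNF2 (also called RING1B) ubiquitinates histone H2A together with a PCGF protein such as BMI1, and a CBX protein such as CBX2 or CBX7 binds the PRC2 mark. EZH2 is known from dividing cells and EZH1 from resting ones, and BMI1 is known for the self-renewal of neural stem cells.

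The count totals lay between 18069052 and 19451818 per library, and the scarcest member in any library, Cbx7 in EGF/FGF, had 59 counts or more. The 9 NSC marker genes (Sox2, Nes, Slc1a3 and others) summed to 5952 to 6472 counts normalised to library size (CPM) in EGF/FGF, 9355 to 10418 CPM in BMP and 10220 to 11043 CPM in BMP/FGF. Of these 9 genes, 6 were higher and 3 lower in each BMP4 condition than in EGF/FGF. Csf1r, a microglial receptor, was at or under 3 counts in all 12 libraries. It is 1 of 6 listed microglial genes, of which 2 passed the filter on low counts. That list summed to 5.31 to 14.7 CPM over the libraries. Replicates were closer to each other than in the BL6 BMP pair in all other groups: the chi-square of their counts per degree of freedom was 12.4 in BL6 BMP and 2.14 to 4.76 elsewhere. The 20 genes of a proliferation list were all lower in both BMP4 conditions. Their summed level was 4388 to 5136 CPM in EGF/FGF, 803 to 1085 CPM in BMP and 552 to 584 CPM in BMP/FGF. Among them, Mki67, a marker of cycling cells, ran from 533 to 804 CPM in EGF/FGF, from 54.6 to 130 CPM in BMP and from 43.0 to 50.8 CPM in BMP/FGF. The part of cell division in any difference below was not tested, and in bulk RNA a change per cell and a change in the share of cells cannot be told apart.

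Stretches from the promoter windows of some members are shown first. Those of Suz12 and Eed run from 250 to 151 bases before the transcript start and that of Cbx7 from 120 to 21. The part of these sequences in any change below was not tested. RefSeq promoter windows on GRCm38.p6, 300 bases each, were found for 9 of the 10 members, in 10 windows. They were searched on both strands for words bound by E2F factors (TTTGGCGC, TTTCCCGC, TTTCGCGC, TTTGCCGC), for the cell cycle homology region (CHR, TTTGAA) and for the E-box (CACGTG), and no hits of different motifs overlapped in the members. An E2F word stood 3 bases after the first transcribed base of Ezh2 and 219 bases before that of Suz12, and 2.26% of 32851 windows held such a word. The CHR word occurred in Eed (197 and 183 bases before the start), Suz12 (203 before) and Cbx7 (54 before), and in 17.9% of all windows. The E-box stood 215 bases before the start of Bmi1 and in 7.15% of windows. All starts here are those of the RefSeq windows. For Ezh2 and Cbx7 the window lies wholly inside the gene span given below, so its start is not the outer end of that span. Below, capitals mark these words; the Ezh2 stretch is chr6:47595001-47595200 (minus strand), Suz12 chr11:79992856-79992955 (plus), Eed chr7:89981127-89981226 (minus), Cbx7 chr15:79932667-79932766 (minus) and Ezh1 chr11:101226434-101226633 (minus), which held none of the words.
Ezh2: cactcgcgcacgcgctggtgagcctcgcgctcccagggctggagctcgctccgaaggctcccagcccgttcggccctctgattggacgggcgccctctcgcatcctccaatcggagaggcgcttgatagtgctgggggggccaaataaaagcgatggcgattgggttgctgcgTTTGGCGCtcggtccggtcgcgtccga
Suz12: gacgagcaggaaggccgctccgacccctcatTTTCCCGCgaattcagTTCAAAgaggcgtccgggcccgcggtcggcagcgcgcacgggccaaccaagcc
Eed: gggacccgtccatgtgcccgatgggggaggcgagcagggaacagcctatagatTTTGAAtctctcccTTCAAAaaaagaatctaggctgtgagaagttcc
Cbx7: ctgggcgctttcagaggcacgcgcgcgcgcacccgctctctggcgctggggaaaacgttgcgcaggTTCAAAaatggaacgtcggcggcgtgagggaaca
Ezh1: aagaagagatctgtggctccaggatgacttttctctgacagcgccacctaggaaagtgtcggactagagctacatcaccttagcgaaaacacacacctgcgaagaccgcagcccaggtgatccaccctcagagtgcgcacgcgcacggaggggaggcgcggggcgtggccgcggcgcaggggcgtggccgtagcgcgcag

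EZH1 and EZH2 are the alternative enzymes of PRC2, and their transcripts moved in opposite directions when EGF and FGF2 were replaced by BMP4. Ezh2 (ENSMUSG00000029687, chr6:47530139-47595341, GRCm38) was at 172 and 159 CPM in the ANS4 EGF/FGF libraries and at 193 and 206 CPM in those of BL6. In BMP it was at 61.2 and 51.2 CPM in ANS4 and at 65.2 and 62.8 CPM in BL6. In BMP/FGF it was at 48.3 and 53.6 CPM in ANS4 and at 45.0 and 44.8 CPM in BL6. Every EGF/FGF library thus lay above every BMP4 library. The mean fell from 182 ± 20.6 CPM (SD, n = 4) to 60.1 ± 6.14 in BMP, which was 3.03-fold lower (log2 difference -1.60, SE 0.09, edgeR quasi-likelihood test, adjusted p = 8.01e-12). In BMP/FGF the mean was 47.9 ± 4.11 CPM, 3.79-fold below EGF/FGF (log2 -1.92, SE 0.09, adjusted p = 8.61e-13).

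Ezh1 (ENSMUSG00000006920, chr11:101191115-101226463) was scarce in EGF/FGF, at 10.97 and 12.1 CPM in ANS4 and at 11.7 and 11.1 CPM in BL6. In BMP it stood at 29.7 and 28.2 CPM in ANS4 and at 37.3 and 32.5 CPM in BL6. In BMP/FGF it stood at 35.1 and 34.4 CPM in ANS4 and at 32.6 and 34.0 CPM in BL6. The BMP and BMP/FGF libraries overlapped, and both lay wholly above EGF/FGF. Ezh1 rose 2.78-fold in BMP (log2 1.47, SE 0.09, adjusted p = 3.41e-11) and 2.97-fold in BMP/FGF (log2 1.57, SE 0.09, adjusted p = 1.47e-11) against EGF/FGF.

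To set the enzymes beside each other, CPM were divided by the length of the longest coding transcript in kilobases. On this scale the Ezh1 share of the summed Ezh1 and Ezh2 level was 4.04 ± 0.572% in EGF/FGF, 26.0 ± 1.39% in BMP and 32.1 ± 1.54% in BMP/FGF (SD, n = 4). The 3 ranges did not overlap (3.44 to 4.81%, 24.3 to 27.5% and 29.8 to 33.4%). The log2 ratio of Ezh1 to Ezh2 went from -4.58 ± 0.21 in EGF/FGF to -1.51 ± 0.10 in BMP and -1.09 ± 0.10 in BMP/FGF, so that Ezh2 remained the larger in every library. Without division by length the log2 ratios were -3.99, -0.92 and -0.49, since a constant was removed from each, and the distances between conditions did not change.

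**Figure D1:**
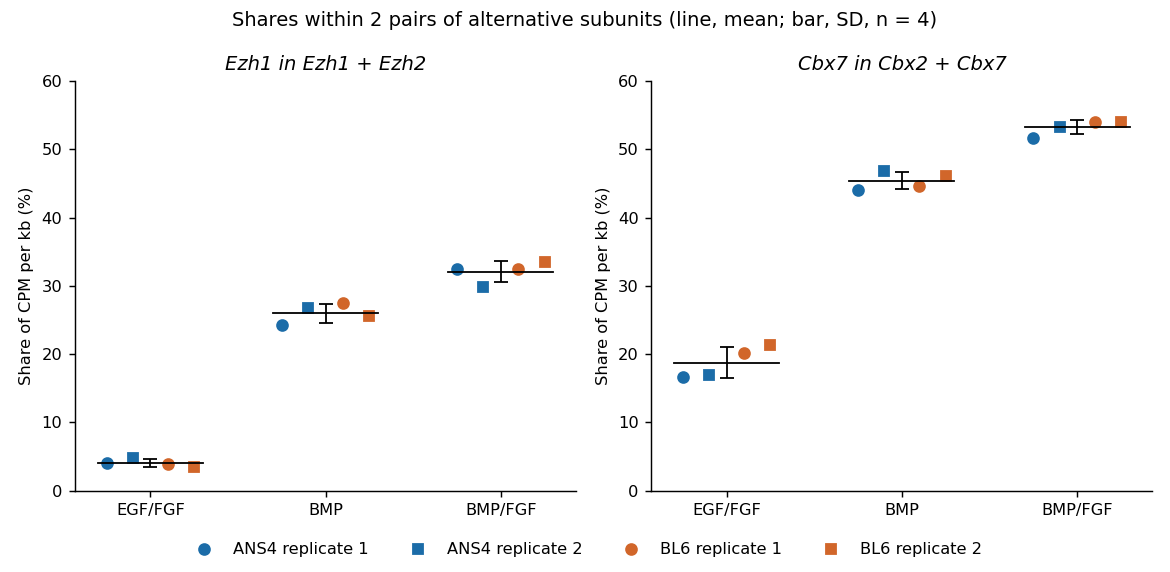
Share of Ezh1 in the sum of Ezh1 and Ezh2 (left) and of Cbx7 in the sum of Cbx2 and Cbx7 (right), in percent of CPM per kilobase, for each of the 12 libraries by condition. Horizontal lines are means and bars SD (n = 4). The Ezh1 share stands near 4% in EGF/FGF and between 24.3 and 33.4% in the BMP4 libraries. The Cbx7 share is higher in both BMP4 conditions than in EGF/FGF, and its place against 50% depends on the transcript length used.

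Eed and Suz12, which encode the core partners of both enzymes, were lower in both BMP4 conditions. Eed (ENSMUSG00000030619, chr7:89954654-89980983) was at 47.0 and 41.1 CPM in ANS4 and at 46.2 and 47.7 CPM in BL6 under EGF/FGF. It was at 19.2 and 20.3 CPM in ANS4 and at 24.1 and 20.8 CPM in BL6 under BMP. It was at 24.0 and 25.5 CPM in ANS4 and at 24.2 and 23.7 CPM in BL6 under BMP/FGF. All 8 BMP4 libraries lay below all EGF/FGF libraries. Eed fell by 1.11 on the log2 scale in BMP (SE 0.08, adjusted p = 2.53e-10) and by 0.90 in BMP/FGF (SE 0.08, adjusted p = 4.46e-09).

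Suz12 (ENSMUSG00000017548, chr11:79993106-80034123) was at 188 and 174 CPM in ANS4 and at 197 and 202 CPM in BL6 under EGF/FGF. Under BMP it was at 95.6 and 92.2 CPM in ANS4 and at 106 and 87.1 CPM in BL6. Under BMP/FGF it was at 79.2 and 84.2 CPM in ANS4 and at 92.9 and 90.9 CPM in BL6. The EGF/FGF libraries again stood apart, while BMP and BMP/FGF overlapped. Its level dropped 1.99-fold in BMP (log2 -0.99, SE 0.06, adjusted p = 1.18e-10) and 2.19-fold in BMP/FGF (log2 -1.13, SE 0.07, adjusted p = 2.28e-11).

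Exons of Ezh2, Eed and Suz12 share 174, 261 and 178 bases with genes on the opposite strand, and those of Rnf2 and Cbx7 share 158 and 100 bases with Trmt1l and Apobec3. Whether strand was used in the quantification is not given in the sources used here, so reads in those stretches cannot be assigned with certainty.

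Jarid2 (ENSMUSG00000038518, chr13:44729474-44921643), whose protein helps to bring PRC2 to its targets, rose in both BMP4 conditions, by less than Ezh1. It was at 50.0 and 49.5 CPM in ANS4 and at 45.4 and 42.4 CPM in BL6 under EGF/FGF. Under BMP it was at 53.3 and 54.4 CPM in ANS4 and at 75.4 and 68.0 CPM in BL6. Under BMP/FGF it was at 59.7 and 60.7 CPM in ANS4 and at 61.6 and 56.9 CPM in BL6. The lines stood apart in EGF/FGF, where BL6 was lower, and in BMP, where BL6 was higher, but not in BMP/FGF. In EGF/FGF the difference between the lines did not pass the edgeR test (log2 -0.18, adjusted p = 0.170). Over both lines the difference was 0.42 on the log2 scale in BMP (SE 0.09, adjusted p = 0.000599) and 0.35 in BMP/FGF (SE 0.09, adjusted p = 0.00268). In a fit of the ANS4 libraries alone the BMP difference was 0.11 (adjusted p = 0.125).

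The CBX genes, which encode readers of the PRC2 mark, differed in their course. Cbx7 (ENSMUSG00000053411, chr15:79915807-79971119) was at 3.05 and 3.51 CPM in ANS4 and at 4.68 and 4.65 CPM in BL6 under EGF/FGF. Under BMP it was at 10.8 and 11.6 CPM in ANS4 and at 14.2 and 16.3 CPM in BL6. Under BMP/FGF it was at 11.96 and 12.8 CPM in ANS4 and at 12.01 and 13.3 CPM in BL6. No BMP4 library came near the EGF/FGF range. The rise was 3.32-fold in BMP (log2 1.73, SE 0.12, adjusted p = 3.03e-10) and 3.18-fold in BMP/FGF (log2 1.67, SE 0.12, adjusted p = 5.93e-10).

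Cbx2 (ENSMUSG00000025577, chr11:119022962-119031270) was at 17.1 and 19.4 CPM in ANS4 and at 20.9 and 19.2 CPM in BL6 under EGF/FGF. Under BMP it was at 15.4 and 14.8 CPM in ANS4 and at 19.8 and 21.4 CPM in BL6, which straddled the EGF/FGF range. Under BMP/FGF it was at 12.6 and 12.6 CPM in ANS4 and at 11.5 and 12.7 CPM in BL6, below every other library. Against EGF/FGF, the log2 difference of Cbx2 was -0.11 in BMP (95% interval -0.32 to 0.09, adjusted p = 0.304) and it fell by 0.63 in BMP/FGF (SE 0.10, adjusted p = 1.72e-05). Per kilobase, the Cbx7 share of the Cbx2 and Cbx7 sum was 18.8 ± 2.34% in EGF/FGF, 45.4 ± 1.27% in BMP and 53.2 ± 1.07% in BMP/FGF (SD, n = 4). The longest coding transcripts, used here, are 3388 bases for Cbx7 and 3807 for Cbx2, and the median ones 710 and 3807. The size of the share depends on this choice, and its order over the conditions does not.

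Bmi1, Ring1 and Rnf2 encode the PRC1 enzyme module, and from EGF/FGF to BMP/FGF their log2 differences were the 3 smallest in size among the 10 members. Bmi1 (ENSMUSG00000026739, chr2:18677018-18686629) ranged from 199 to 236 CPM in EGF/FGF, from 182 to 206 CPM in BMP and from 159 to 180 CPM in BMP/FGF. It fell by 0.18 on the log2 scale in BMP (SE 0.06, adjusted p = 0.0109) and by 0.34 in BMP/FGF (SE 0.06, adjusted p = 6.77e-05). Rnf2 (ENSMUSG00000026484, chr1:151458004-151500955) ranged from 89.2 to 97.2 CPM in EGF/FGF, from 86.2 to 90.4 CPM in BMP and from 73.8 to 87.3 CPM in BMP/FGF. The BMP range overlapped both others, and those of EGF/FGF and BMP/FGF did not overlap. The log2 difference of Rnf2 was -0.08 in BMP (95% interval -0.20 to 0.05, adjusted p = 0.255) and it fell by 0.17 in BMP/FGF (SE 0.06, adjusted p = 0.0140). In a fit of the BL6 libraries alone its BMP/FGF difference was -0.086 (adjusted p = 0.302). Ring1 (ENSMUSG00000024325, chr17:34020792-34024680) ranged from 15.3 to 16.6 CPM in EGF/FGF, from 16.5 to 21.0 CPM in BMP and from 17.2 to 19.7 CPM in BMP/FGF. Its log2 difference of 0.21 in BMP (adjusted p = 0.0409) and of 0.20 in BMP/FGF (adjusted p = 0.0498) passed the threshold narrowly, and the call was lost in 14 and 16 of 22 alternative analyses. Leaving out any of the 4 EGF/FGF libraries, BL6 BMP replicate 1, ANS4 BMP/FGF replicate 1 or BL6 BMP/FGF replicate 2 ended it in both comparisons. BL6 BMP replicate 2 did so in the first alone, and ANS4 BMP replicate 1 and ANS4 BMP/FGF replicate 2 in the latter alone (0.13 to 0.22, adjusted p 0.05005 to 0.155, in the first, and 0.16 to 0.21, adjusted p 0.0522 to 0.149, in the latter). The Rnf2 call in BMP/FGF was lost without ANS4 EGF/FGF replicate 1 or ANS4 BMP/FGF replicate 1, where the log2 difference was -0.14 (adjusted p 0.0536 to 0.0560).

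**Figure D2:**
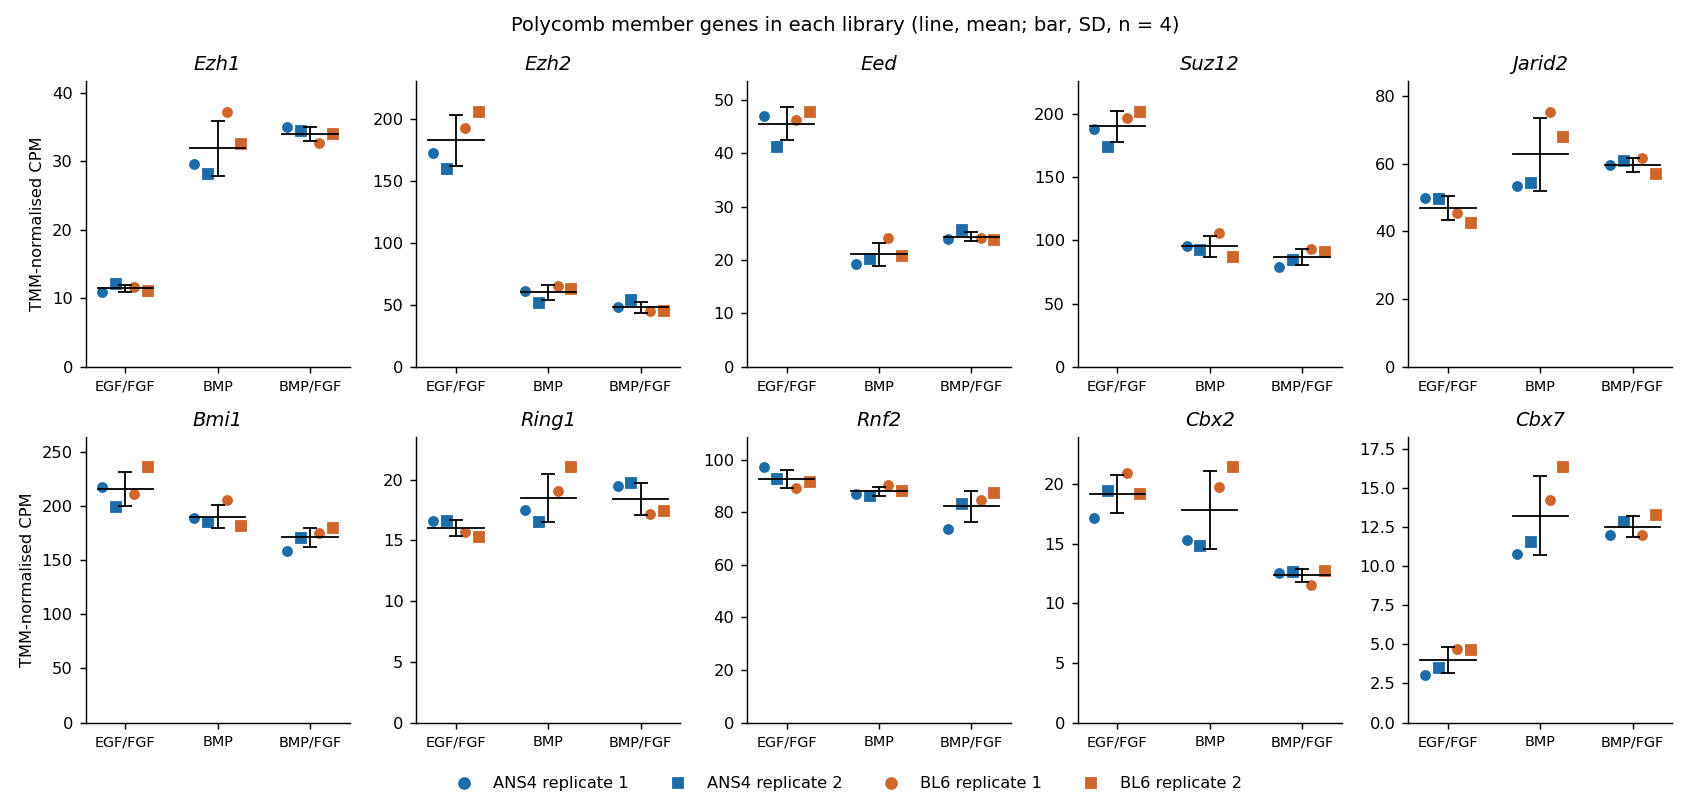
TMM-normalised CPM of the 10 members in each of the 12 libraries by condition, with a separate linear axis from 0 for each gene; colour marks the line and shape the replicate, lines are means and bars SD (n = 4). Ezh2, Eed and Suz12 drop and Ezh1, Cbx7 and, by less, Jarid2 climb outside the EGF/FGF range in all 8 BMP4 libraries. Bmi1, Rnf2 and Ring1 change less than these. They lie outside that range in every BMP/FGF library but overlap it in BMP.

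Counted over the members, 4 were higher (Ezh1, Jarid2, Ring1, Cbx7) and 4 lower (Ezh2, Eed, Suz12, Bmi1) in BMP than in EGF/FGF at an adjusted p under 0.05. Over all 13312 genes tested, 40.8% were called higher and 38.8% lower, so the members' count was near the background. In BMP/FGF against EGF/FGF 4 were higher and 6 lower, beside 40.9% and 38.0% of all genes. At the fold threshold of the study, a log2 difference past 1.5, Cbx7 was higher and Ezh2 lower in BMP, 1 member each way, beside 10.9% and 6.95% of all genes. In BMP/FGF Ezh1 and Cbx7 were past it upwards and Ezh2 downwards, beside 10.6% and 6.08%. The median log2 difference of the members was -0.09 in BMP and -0.25 in BMP/FGF, against 0.02 over all genes tested in each comparison. Both comparisons share the EGF/FGF libraries.

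For single members, an exact two-sided permutation test over the 70 ways to divide 8 libraries into 4 and 4 cannot give a p below 0.0286. Ezh1, Ezh2, Eed, Suz12, Jarid2 and Cbx7 reached this smallest exact value in BMP against EGF/FGF, where Bmi1 and Rnf2 gave p = 0.0571, Ring1 p = 0.0857 and Cbx2 p = 0.429. Every member reached it in BMP/FGF against EGF/FGF. The share of all genes that reach this value was not computed, so these counts have no background beside them. In the edgeR fit 40.9% of all genes were called higher and 38.0% lower in that comparison.

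Per kilobase, the order of the members changed with the condition. In EGF/FGF Ezh2 stood first at 65.5 CPM per kilobase and overlapped with Bmi1 at 60.2, followed by Suz12 at 43.5, Rnf2 at 28.9 and Eed at 22.0. Ring1 (7.88) and Jarid2 (7.81) overlapped, and Cbx2 (5.04), Ezh1 (2.72) and Cbx7 (1.17) closed the order, each apart from its neighbours. In BMP Bmi1 led at 53.0 CPM per kilobase and Rnf2 came next at 27.5, with Suz12 (21.8) and Ezh2 (21.6) overlapping behind. Ezh1, at 7.58, was by then above Cbx2 at 4.69, and Cbx2 overlapped with Cbx7 at 3.90. In BMP/FGF the 4 leading places were the same as in BMP, and Cbx7 (3.70) stood above Cbx2 (3.25), with no overlap of their libraries. Undivided by length, Cbx7 (11.96 to 13.3 CPM) and Cbx2 (11.5 to 12.7 CPM) overlapped in BMP/FGF. The order depends on the length chosen. The longest coding transcript, used here, is 3388 bases for Cbx7, 3594 for Bmi1 and 5997 for Jarid2, where the median is 710, 617 and 2493.5.

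BMP4 with FGF2 was also compared with BMP4 alone. At an adjusted p under 0.05, Ezh2 and Cbx2 were lower and Eed higher in BMP/FGF than in BMP. That is 2 of 10 lower and 1 higher beside 21.3% and 20.1% of all genes, a count not far from the background. Cbx2 fell by 0.52 on the log2 scale (SE 0.10, adjusted p = 0.000582), was lower in every BMP/FGF library than in any BMP library, and reached the smallest exact permutation p of 0.0286. Ezh2 fell by 0.32 (SE 0.09, adjusted p = 0.00730), with 1 BMP/FGF library above the lowest BMP library and an exact permutation p of 0.0571. Eed was higher by 0.21 (SE 0.08, adjusted p = 0.0390), a call lost in 14 of 22 alternative analyses. These included leaving out either ANS4 BMP replicate, either ANS4 BMP/FGF replicate, BL6 BMP replicate 2 or BL6 BMP/FGF replicate 1, where Eed gave 0.17 to 0.22 (adjusted p 0.0577 to 0.126).

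The other 7 members did not pass the test between BMP and BMP/FGF. The log2 difference of Ezh1 was 0.10 (95% interval -0.07 to 0.27), that of Cbx7 -0.06 (-0.29 to 0.16) and that of Jarid2 -0.07 (-0.26 to 0.13). For Suz12 it was -0.14 (-0.27 to 0.00), for Rnf2 -0.10 (-0.22 to 0.03) and for Ring1 -0.01 (-0.20 to 0.18). Bmi1, at -0.15 (-0.28 to -0.03, adjusted p = 0.0513), did not overlap between the conditions and gave an exact permutation p of 0.0286. Without BL6 BMP replicate 2, Suz12 (-0.20, adjusted p = 0.00832) and Bmi1 (-0.19, adjusted p = 0.0162) passed the test.

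**Figure D3:**
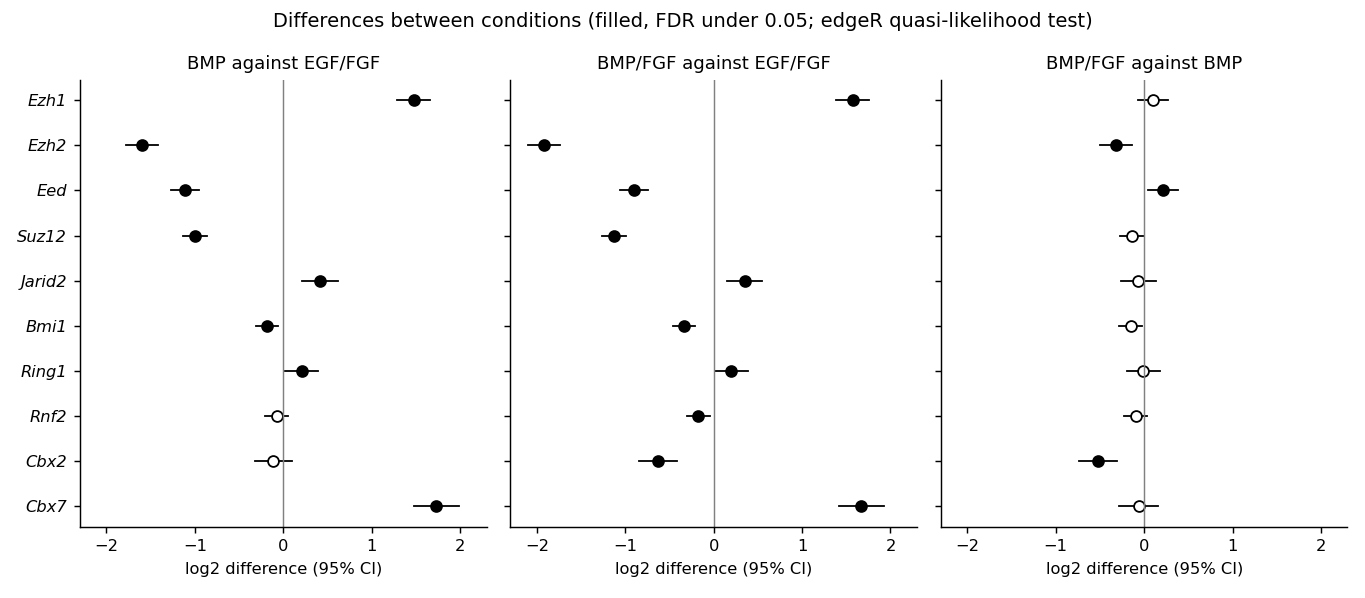
Log2 difference of each member in the 3 comparisons of conditions, with 95% intervals; filled points passed an adjusted p under 0.05 in the edgeR quasi-likelihood test. The 2 left panels show differences from -1.92 to 1.73, and the right panel, BMP/FGF against BMP, holds differences from -0.52 to 0.21.

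The lines were compared by the difference of their changes, BL6 minus ANS4. The values within a line come from the same fit of the 6 groups. For the change from EGF/FGF to BMP, Jarid2 was the 1 member with a line difference, beside 9.02% of all genes. Jarid2 rose by 0.71 on the log2 scale in BL6 (adjusted p = 9.33e-08), its change in ANS4 was 0.11 (adjusted p = 0.180), and the changes differed by 0.59 (SE 0.11, adjusted p = 0.00230). This call held in all 19 alternative analyses, with differences from 0.52 to 0.66. Ring1 (0.33, adjusted p = 0.132) and Cbx2 (0.32, adjusted p = 0.185) had differences of the same sign that did not pass, except for Ring1 without BL6 BMP replicate 1 (0.40, adjusted p = 0.0476).

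For the step from BMP to BMP/FGF, 3 of 10 members had a line difference, Jarid2, Cbx2 and Ring1, beside 13.5% of all genes. Jarid2 fell by 0.28 in BL6 (adjusted p = 0.00536), with 0.16 in ANS4 (adjusted p = 0.111), a difference of -0.44 (SE 0.11, adjusted p = 0.0108). Cbx2 fell by 0.77 in BL6 (adjusted p = 1.44e-05), with -0.26 in ANS4 (adjusted p = 0.0799), a difference of -0.51 (SE 0.15, adjusted p = 0.0351). Ring1 gave -0.21 in BL6 and 0.20 in ANS4, neither past the threshold, and a difference of -0.42 (SE 0.13, adjusted p = 0.0463). All these line differences use the BL6 BMP libraries, the pair that agreed least. The Jarid2 call was lost in 2 of 19 alternative analyses, among them without BL6 BMP/FGF replicate 2 (-0.37, adjusted p = 0.0802). The Cbx2 call was lost in 10, among them without any 1 of the ANS4 BMP, ANS4 BMP/FGF or BL6 BMP/FGF libraries or without BL6 BMP replicate 2 (-0.57 to -0.42, adjusted p 0.0629 to 0.161). The Ring1 call was lost in 17, among them without any library other than BL6 BMP replicate 1 (-0.45 to -0.34, adjusted p 0.0573 to 0.147).

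The Ezh2 values differed in the same way without passing. Ezh2 fell by 0.51 in BL6 (adjusted p = 0.000112), with -0.14 in ANS4 (adjusted p = 0.227), and the difference of -0.37 had an adjusted p of 0.0526. It passed without ANS4 BMP replicate 1 or without BL6 BMP replicate 2 (-0.49 and -0.40). The line differences of Ezh1 (-0.33, adjusted p = 0.0888) and Cbx7 (-0.42, adjusted p = 0.0984) did not pass either, and did so without BL6 BMP replicate 2 (Ezh1, -0.43, adjusted p = 0.0196) and without BL6 BMP replicate 1 (Cbx7, -0.52, adjusted p = 0.0348). The proliferation sum moved with the line in BMP, at 803 and 812 CPM in ANS4 against 1009 and 1085 CPM in BL6, and its part in these differences was not tested.

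Between the lines in EGF/FGF, Ezh2 was the 1 member called, beside 6.75% of all genes, at 0.26 higher in BL6 on the log2 scale (SE 0.08, adjusted p = 0.0472). The proliferation sum was also higher there, at 5121 and 5136 CPM in BL6 against 4388 and 4428 CPM in ANS4, and its part was not tested. The Ezh2 call was lost in 11 of 18 alternative analyses, among them the removal of any of the 4 EGF/FGF libraries or of any of the 4 BMP/FGF libraries (0.21 to 0.32, adjusted p 0.0599 to 0.345). Cbx7, at 0.51 (adjusted p = 0.0748), did not pass, and did so without either BL6 BMP replicate (0.51, adjusted p 0.0427 and 0.0429).

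**Figure D4:**
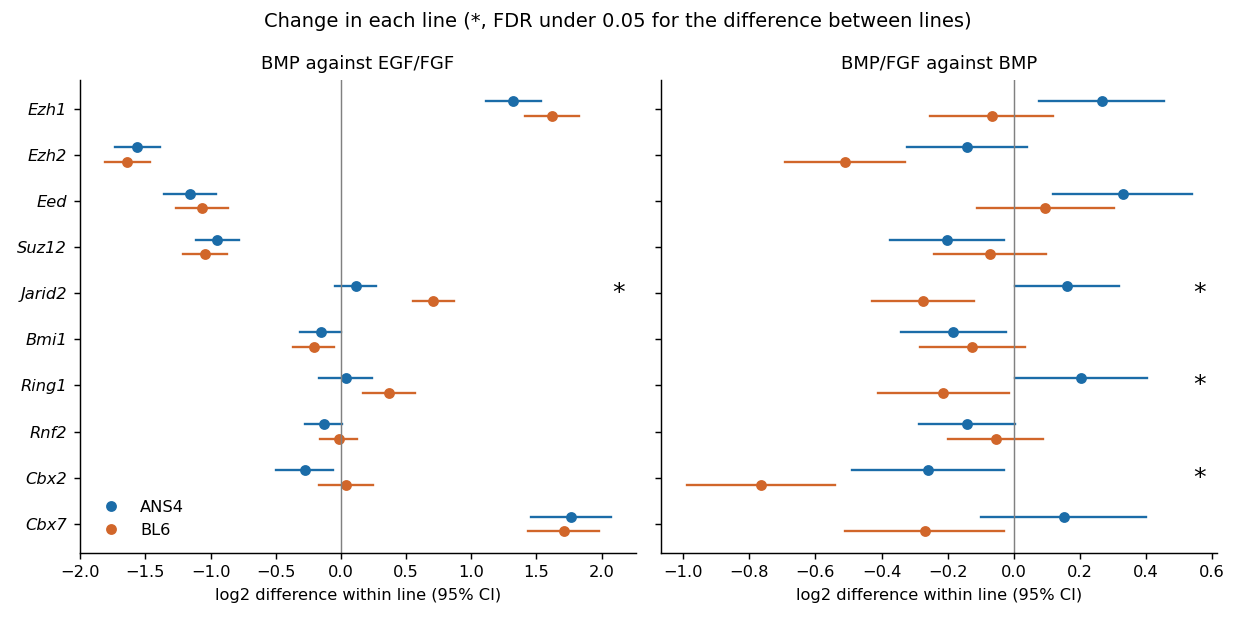
Log2 change of each member within ANS4 (blue) and BL6 (orange), with 95% intervals, from EGF/FGF to BMP (left) and from BMP to BMP/FGF (right); an asterisk marks an adjusted p under 0.05 for the difference between the lines. Ezh1, Ezh2, Eed, Suz12 and Cbx7 move in the same direction in both lines on the left, where Jarid2 carries the asterisk, and on the right Jarid2, Ring1 and Cbx2 carry it.

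The further Polycomb genes were counted from lists of complex subunits, 39 genes tested of 41 listed. In BMP against EGF/FGF 10 were higher and 22 lower, beside 40.8% and 38.8% of all genes. In BMP/FGF against BMP 2 were higher and 22 lower, beside 20.1% and 21.3%. Their median log2 difference was -0.29 in the first comparison and -0.27 in the second, against 0.02 and -0.00 over all genes.

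All 8 tested partners of PRC2 were lower in BMP than in EGF/FGF, beside 38.8% of all genes. The largest falls were those of Rbbp7, a histone chaperone subunit (-1.22, adjusted p = 3.09e-12), Phf1, a Polycomb-like accessory subunit (-1.05, adjusted p = 1.48e-05), and Epop, an elongin-binding partner (-0.59, adjusted p = 0.000105). Epop (-0.56, adjusted p = 0.00143), Mtf2 (-0.31, adjusted p = 0.0200) and Phf19 (-0.24, adjusted p = 0.0378) were lower again in BMP/FGF than in BMP. Mtf2 and Phf19 also encode Polycomb-like accessory subunits. The other 5 partners did not pass in that step.

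Among 9 further subunits of canonical PRC1, 5 were higher and 2 lower in BMP than in EGF/FGF, beside 40.8% and 38.8% of all genes. Pcgf2, a paralog of Bmi1 also known as Mel18, rose to 26.7 CPM (log2 1.15, adjusted p = 1.27e-07) and stood at 13.2 CPM in BMP/FGF, a fall of 1.00 from BMP (adjusted p = 6.36e-06). Scmh1 (0.51, adjusted p = 1.65e-05) and the Polyhomeotic gene Phc3 (0.42, adjusted p = 8.56e-06) also rose, and Cbx6 (-0.47, adjusted p = 3.58e-05) and Scmh1 (-0.34, adjusted p = 0.00265) fell between BMP and BMP/FGF. Scml2, a Polycomb group gene of low level here, went from 4.99 to 0.865 CPM (log2 -2.51, adjusted p = 1.15e-09), and Phc2 fell by 0.36 (adjusted p = 9.36e-05).

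Of 15 genes of variant PRC1, 3 were higher and 10 lower in BMP than in EGF/FGF, beside 40.8% and 38.8% of all genes. Fbrsl1 had the largest rise (1.33, adjusted p = 1.33e-11), followed by Bcorl1, a paralog of the corepressor Bcor (0.47, adjusted p = 4.15e-05), and Fbrs (0.39, adjusted p = 9.19e-05). The largest falls were those of L3mbtl2, an MBT-domain subunit (-1.10, adjusted p = 3.75e-10), E2f6, a repressive E2F factor (-0.80, adjusted p = 4.57e-08), and Pcgf5, a PCGF subunit (-0.74, adjusted p = 1.37e-05). Between BMP and BMP/FGF Pcgf5 (0.33, adjusted p = 0.0362) and E2f6 (0.28, adjusted p = 0.0118) rose. Auts2 (-0.60, adjusted p = 0.000119), Bcor (-0.54, adjusted p = 0.000174) and Bcorl1 (-0.46, adjusted p = 0.000224) fell most among 9 that fell, beside 21.3% of all genes.

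The PR-DUB complex removes the PRC1 mark from histone H2A. Of its 7 tested genes, 2 were higher in BMP, Foxk1 (0.52, adjusted p = 4.76e-07) and Mbd5 (0.26, adjusted p = 0.00689), beside 40.8% of all genes. Foxk2 (-0.74, adjusted p = 4.09e-10) and Asxl2 (-0.50, adjusted p = 2.82e-06) were the 2 lower, beside 38.8% of all genes. Between BMP and BMP/FGF 4 fell, beside 21.3% of all genes, with Mbd6 (-0.41, adjusted p = 0.00543), Mbd5 (-0.41, adjusted p = 0.000628) and Asxl2 (-0.34, adjusted p = 0.000888) the largest falls.

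Polycomb is opposed by the demethylases of lysine 27 and by Trithorax/COMPASS proteins, among them methyltransferases of lysine 4. The list counted here also holds COMPASS subunits that are not enzymes. In BMP against EGF/FGF 5 of 14 were higher and 5 lower, near the background of 40.8% and 38.8% of all genes. Setd1b (0.89, adjusted p = 8.96e-09) and the demethylases Kdm6b (0.71, adjusted p = 2.82e-06) and Kdm6a (0.31, adjusted p = 0.000471) rose. The COMPASS core subunits Dpy30 (-1.02, adjusted p = 8.08e-10), Wdr5 (-0.63, adjusted p = 1.63e-08) and Ash2l (-0.34, adjusted p = 4.31e-05) fell. In BMP/FGF against BMP 11 of 14 were lower, beside 21.3% of all genes, with a median of -0.29. The methyltransferases Kmt2a (-0.78, adjusted p = 3.46e-07), Kmt2d (-0.75, adjusted p = 6.94e-06) and Setd1b (-0.71, adjusted p = 1.89e-06) fell most.

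Classical targets of Polycomb, the Ink4 locus and the Hox clusters, were for the most part at low counts or not analysed here. Of 41 listed genes 18 were in the count table and 8 passed the filter, and the 10 that did not pass had at most 6 counts in any library. Cdkn2b, an inhibitor of CDK4 and CDK6, rose from 15.7 to 39.3 CPM in BMP (log2 1.33, adjusted p = 2.75e-09) and was at 40.4 CPM in BMP/FGF. Cdkn2a, its neighbour in the locus, went from 1.53 to 2.41 CPM (0.65, adjusted p = 0.0286). Hoxa2 rose (0.66, adjusted p = 0.000142) and Hoxa5 fell (-0.75, adjusted p = 9.74e-08) in BMP against EGF/FGF, and Hoxa3 (-0.36, adjusted p = 0.0365) and Hoxa2 (-0.32, adjusted p = 0.0469) fell between BMP and BMP/FGF. In all, 4 of the 8 were higher and 1 lower in BMP, beside 40.8% and 38.8% of all genes.

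**Figure D5:**
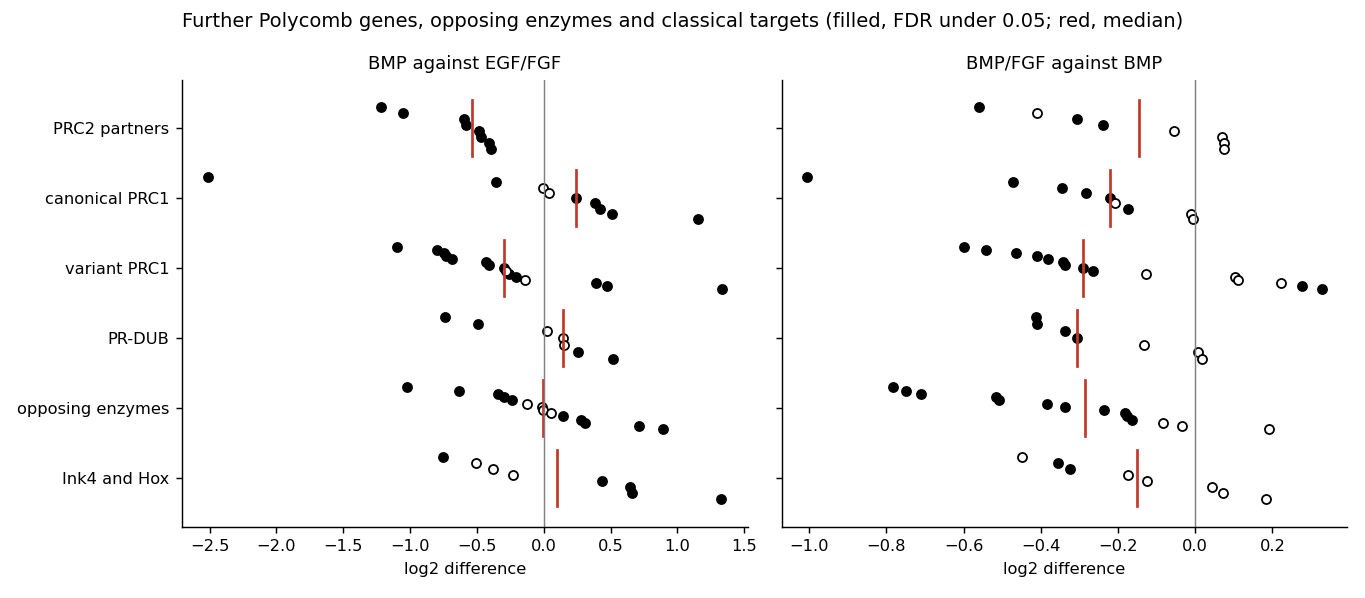
Log2 differences of single genes in 6 lists for BMP against EGF/FGF (left) and BMP/FGF against BMP (right); filled points passed an adjusted p under 0.05 and red lines are list medians. The PRC2 partners lie wholly below 0 on the left, canonical PRC1 and the opposing enzymes with their subunits lie on both sides, and on the right most passing genes of every list lie below 0.

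The genes whose course over the 12 libraries was most like that of Ezh1 and Ezh2 were taken by the root mean square distance of log2 CPM centred on each gene's mean, among 13311 genes. Nearest to Ezh2 were Usp1 (distance 0.07), Cep192 (0.10), Hmgb2 (0.10), Pask (0.11) and Traip (0.11). Nearest to Ezh1 were Cir1 (0.08), Cpne8 (0.10), Ehd3 (0.11), Clip3 (0.11) and Zfp874b (0.11). Usp1, relative to its mean, was at 1.196 in EGF/FGF, -0.42 in BMP and -0.77 in BMP/FGF on the log2 scale, where Ezh2 was at 1.17, -0.43 and -0.75. Cir1 was at -0.96, 0.40 and 0.56, where Ezh1 was at -1.01, 0.45 and 0.55.

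Signals of other cell types were also measured. The neuroblast and neuron list, of which 4 of 6 genes were tested, summed to 556 to 590 CPM in EGF/FGF, 1133 to 1772 CPM in BMP and 874 to 939 CPM in BMP/FGF. The 6 astrocyte genes summed to 1610 to 1984 CPM, 4549 to 5968 CPM and 7502 to 7653 CPM in the same order. The oligodendrocyte list (2 of 5 tested) summed to 12.6 to 15.0 CPM, 149 to 174 CPM and 240 to 249 CPM, with Mog at or under 3 counts in EGF/FGF and BMP/FGF. The microglia list (2 of 6 tested) summed to 9.56 to 14.7 CPM, 5.31 to 6.18 CPM and 7.15 to 9.38 CPM in that order. The endothelial list (1 of 4) stayed between 1.41 and 4.26 CPM and the pericyte and fibroblast list (2 of 4) between 2.02 and 2.98 CPM. The part of these cell types in the members' differences was not tested.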

How the data were processed

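RNA-seq of 12 NSC libraries was used. The authors trimmed the reads with Trim Galore 0.5.0, assigned them to mm10 transcripts with kallisto 0.44.0, summarised them per gene with tximport and deposited estimated counts as whole numbers. A second deposited table held log2 values from the regularized logarithm of the authors' DESeq2 1.27.32. Every sample column of both tables was used. From the estimated counts, genes were kept by filterByExpr (13312 kept, 4053 not), scaled by TMM (factors 0.972 to 1.03) and fitted in edgeR 4.0.16 (R 4.3.3) by the quasi-likelihood method with condition and line as terms on all 12 libraries. Adjusted p-values are Benjamini-Hochberg values over all genes tested, called under 0.05. Line differences came from a fit of the 6 groups of line and condition. CPM are TMM-normalised, and permutation tests used log2 of CPM plus 0.1. Totals ran from 18069052 to 19451818 counts. Replicates differed by more than counting error, with a chi-square per degree of freedom of 2.14 to 12.4. Levels per kilobase used the longest coding transcript of GENCODE vM21.

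Alternatives were scaling by DESeq2 1.42.0 size factors or by library size alone, the Wald test of DESeq2, limma-trend (limma 3.58.1) on the log2 values, omitting the filter or the line term, a block for replicate number, fits restricted to the compared conditions or to ANS4 or BL6, and removal of single libraries. The median transcript length for the Ezh1 to Ezh2 ratio was added after the data were seen. Steps were tested on simulated data. The members and lists were chosen with earlier results of these data known. From each further list, genes past an adjusted p of 0.05 with a mean of at least 1 CPM were named for the 3 largest rises and 3 largest falls from EGF/FGF to BMP and from BMP to BMP/FGF, and for Ezh1 and Ezh2 the 5 nearest genes.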

Additional observations from a re-analysis of the deposited data

Results flagged for a closer look

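Jarid2 differed between the lines in its change from EGF/FGF to BMP by 0.59 on the log2 scale (BL6 minus ANS4) and in its change from BMP to BMP/FGF by -0.44, each by a test of the difference itself. In the latter step Cbx2 differed between the lines by -0.51 and Ring1 by -0.42, by the same test.

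Cbx2 in BL6 BMP/FGF replicate 1, at 11.5 CPM, stood apart from the other 3 BMP/FGF libraries, at 12.6 to 12.7 CPM, by more than the 95% limit of Dixon's test. It was the 1 such value among 30 groups of 4 libraries examined, where chance marks about 1 in 20.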

How the results depend on the processing

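The changes of Ezh1, Ezh2, Eed, Suz12, Bmi1 and Cbx7 against EGF/FGF kept their direction and their call in all 22 alternatives, in BMP and in BMP/FGF. With the replicate number as a block, 3 members were higher and 4 lower in BMP, 3 higher and 6 lower in BMP/FGF against EGF/FGF, and 0 higher and 2 lower in BMP/FGF against BMP, and 1 had a line difference in that last step. Of 13312 genes, 5325, 5341 and 2435 were higher and 5074, 4984 and 2590 lower in the same order. In the last step 786 had a positive and 852 a negative line difference. Differences between replicates correlated by only -0.07 to 0.05 between conditions, so the numbers were not taken as pairs.

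In ANS4 alone, 2 members were higher in BMP than in EGF/FGF, beside 5181 of 13369 genes. There, 2 were also higher and 14 further Polycomb genes lower in BMP/FGF than in BMP, beside 2308 genes higher and 2475 lower. For BMP/FGF against BMP, 0 members were higher with DESeq2 size factors, library size only, the Wald test, the log2 values, no line term, only the 8 libraries compared or BL6 alone, and 4 were lower with library size only. In these fits 2171 to 2624 of all genes tested were higher, and 3386 were lower with library size only. Of the further genes, 1 was higher in that step with library size only, no filter, the 8 libraries or ANS4 alone. Members with a line difference in that step numbered 5 with library size only, 1 with the Wald test and 0 with the log2 values. Over all genes, the positive and negative line differences numbered 544 and 1401, 831 and 701, and 822 and 735 in the same order. With library size only, 28.0% of all genes with a line difference in that step were positive, against 49.3%, and 71.0% against 59.8% in the change to BMP. Between lines in EGF/FGF 0 members were called with DESeq2 size factors or without the filter. Over all genes, 377 were higher and 515 lower in BL6 with these size factors, and 253 and 402 without the filter. The Ezh1 to Ezh2 log2 ratios were -3.99, -0.92 and -0.49 undivided by length and -4.80, -1.73 and -1.30 with the median length, a constant shift by construction.

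Leaving out 1 library at a time gave 0 to 1 members higher and 2 to 4 lower, and 1 to 2 further genes higher, in BMP/FGF against BMP. It gave 1 to 2 members with a line difference in the change to BMP, 0 to 5 in the step to BMP/FGF (0 without BL6 BMP/FGF replicate 2) and 0 to 2 between lines in EGF/FGF. In BL6 alone Cbx2 reversed to 0.022 in BMP against EGF/FGF, and Ezh1 to -0.064 in BMP/FGF against BMP. In ANS4 alone Jarid2, Ring1 and Cbx7 reversed to 0.16, 0.20 and 0.15 in that step, where leaving out single libraries gave -0.14 to 0.026, -0.071 to 0.066 and -0.13 to 0.012. None of these values passed the test; the cause was not tested.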
